A study of Mus musculus with 9 samples.

Results

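Ceramide and the lipids made from it were examined through the genes of 10 enzymes: the core subunits of serine palmitoyltransferase (Sptlc1 and Sptlc2), 5 ceramide synthases (Lass1, Lass2, Lass4, Lass5 and Lass6, the older names of the Cers genes), dihydroceramide desaturase (Degs1), glucosylceramide synthase (Ugcg) and acid ceramidase (Asah1). The set was put together because a probe of Sptlc2 and a probe of Lass4 had already been seen to stand out between the genotypes in these arrays, so the intensities of these 2 genes chose it and are given here as a description, without a test. The array carried 16 probes for 9 of the 10 genes, out of 41174 probes with 27962 gene names that were not controls. Lass1 had no probe under its own name. A single probe named for Gdf1, A_51_P464300, also lists the accession of the Lass1 transcript, because both proteins are read from 1 locus, and it is described apart from the 16.

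The arrays came from mammary glands of mice on lactation day 2, 1 mouse to each of 9 arrays. The wild-type (WT) group held 4 dams and the hNAG-1 group 5 transgenic dams, all of a strain background that the labels spell C57BL/7. The transgenic dams overexpress human NAG-1, a secreted member of the TGFβ superfamily also called GDF15, and the comparison asks how their lactating gland differs. The transgene is expressed ubiquitously and was kept in more than 1 line, but the labels do not give the line of each dam. The study's methods state that the arrays used gland number 4. Its RNA was labelled with Cy3 and hybridised to a whole mouse genome array of the 1-colour type. They give the 4th litter for the glands of the gene expression and protein assays, and do not repeat it for the array dams.

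Sphingolipid synthesis starts in the endoplasmic reticulum, where serine palmitoyltransferase joins serine to a fatty acyl-CoA, and its product is reduced to sphinganine. Ceramide synthases attach a second fatty acid, each of them preferring chains of certain lengths, and dihydroceramide desaturase adds the double bond that makes ceramide. Ceramide is then turned into glucosylceramide or sphingomyelin, or broken down by ceramidases to sphingosine, and in the lactating gland sphingolipids leave the cells in the membrane around milk fat globules.

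Sptlc2 and Lass4 were each read by 3 probes that gave different pictures, so part of each of these 60-base probes is shown to let a reader see which stretch of transcript was measured. Positions are those of the mouse build mm7 in the array files, all sequences run 5′ to 3′ in the sense of the transcript, and no annotation of that build was used here to place them in exons or untranslated regions. The first 30 bases are printed, except for A_51_P296528, of which bases 31 to 60 are printed with the polyadenylation signal AATAAA in capitals.
Sptlc2 A_51_P321331, chr12:85345305-85345364, minus strand: tgccattgtttatggtcagcctcggacaag
Sptlc2 A_52_P200244, chr12:85312414-85312473, minus strand: aaccacacttcagtgaccccttcatgtgaa
Sptlc2 A_52_P59916, chr12:85311144-85311203, minus strand: caagaagagaggcagtgtcatttgtgaagc
Lass4 A_52_P67570, chr8:4485788-4485847, plus strand: cagagcaggttagaggagacctgattaagg
Lass4 A_51_P296528, chr8:4487720-4487779, plus strand: ctttggctccaaggaccAATAAAacgtcaa
Lass4 A_52_P236426, chr8:4488151-4488210, plus strand: acagtggagacctaagatttggtgtgcggt
The 3 Sptlc2 probes follow the transcript from A_51_P321331 through A_52_P200244 to A_52_P59916, the last lying 1270 bases downstream of the second. The first Lass4 probe lies 1932 bases upstream of A_51_P296528, which in turn lies 431 bases upstream of A_52_P236426. The letters AATAAA were found in the transcript sense in 1 of the 16 probes and in 4.78% of all 60-base probes on the array, and on the other strand in 4.25% of them. A match is a description of letters, not of a used signal.

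Intensities below are the deposited background-corrected signals scaled so that the 75th percentile of every array is equal. They are compared between mice for 1 probe at a time, never as levels of different probes. The scanner marked 69.0 to 76.1% of probes as well above background on the WT arrays. It marked 69.7, 60.3, 64.6, 59.8 and 73.3% on those of hNAG-1 1 to 5, so that hNAG-1 2, 3 and 4 lay below all others. Among the enzymes, 15 of the 16 probes were so marked on all 9 arrays. The exception was Lass6 A_52_P667287, marked on none. The slides, 3 in number, were not balanced: WT 1 was on the first, hNAG-1 1 to 4 shared the second, and hNAG-1 5 was hybridised beside WT 2 to 4 on the third. Only slide 3, called the shared slide, held both genotypes, so for the other slides the slide and the genotype cannot be told apart, and the enzymes' values are also given from within that slide. In whole glands, fewer cells of a type and less RNA per cell cannot be told apart.

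Of the subunits of serine palmitoyltransferase, the rate-limiting enzyme of the pathway, Sptlc1 leaned higher in hNAG-1 glands over all arrays without passing the test. Sptlc2 depended on the probe. Sptlc1, which is needed for a stable and active enzyme, ran from 1979 to 2168 in the WT mice and from 2036 to 3120 in the hNAG-1 mice. All but 1 of the hNAG-1 mice exceeded the WT range. The log2 difference, hNAG-1 minus WT, was 0.23 ± 0.15 (SE), a fold of 1.17 with a 95% interval of 0.926 to 1.49. It did not pass the test (limma with Benjamini-Hochberg adjustment over all probes, adjusted p = 0.661; two-sided exact permutation test, p = 0.063). The value was 0.14 without hNAG-1 2. Within the shared slide it was 0.19, where the median over all probes was also 0.19.

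Sptlc2, the subunit that carries the cofactor of the reaction, was lower in hNAG-1 glands at its most downstream probe. A_52_P59916 read 409, 372, 582 and 607 in WT 1 to 4. It read 275, 215, 202, 251 and 471 in hNAG-1 1 to 5. The 4 hNAG-1 mice on the slide without WT mice lay below every WT mouse, whereas hNAG-1 5, on the shared slide, lay inside the WT range. The means were 493 ± 119 (SD, n = 4) and 283 ± 109 (SD, n = 5), a log2 difference of -0.84 ± 0.28 (SE). Within the shared slide the difference was -0.11, and over all arrays it was -0.68 with normexp background correction in place of the scanner's. The lowest readings were those of hNAG-1 2, 3 and 4, the arrays with the fewest probes above background. The part of this in the difference was not tested.

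The neighbouring Sptlc2 probe A_52_P200244 hardly differed between the genotypes. It read 2228, 2123, 2436 and 2672 in WT 1 to 4, and 2160, 2522, 2492, 2474 and 2468 in hNAG-1 1 to 5. The hNAG-1 values all fell within the WT range, and the log2 difference was 0.04 ± 0.13 (SE). The upstream probe A_51_P321331 read 462, 609, 515 and 580 in WT 1 to 4, and 481, 946, 708, 795 and 571 in hNAG-1 1 to 5. Here hNAG-1 2, 3 and 4 exceeded the WT range, with a log2 difference of 0.34 ± 0.21 (SE). It was 0.22 without hNAG-1 2, 0.01 within the shared slide and 0.29 over all arrays with normexp. The same 3 arrays had the fewest probes above background and the lowest readings at A_52_P59916, and the part of this was not tested. The 3 probes of 1 gene thus gave log2 differences of -0.84, 0.04 and 0.34.

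**Figure D1:**
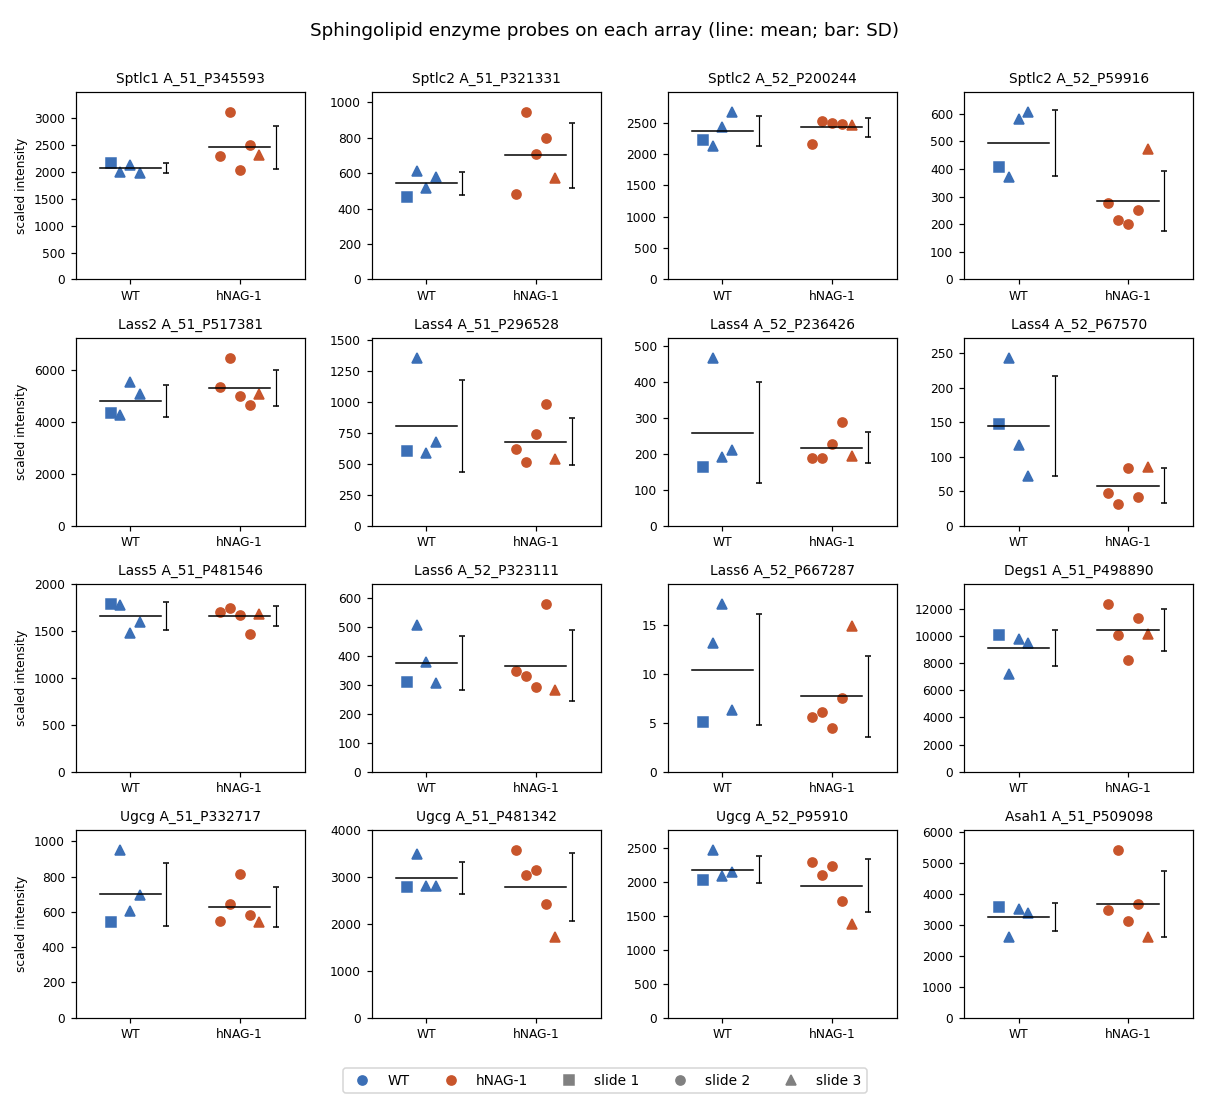
Scaled intensity of each probe of the ceramide and sphingolipid enzymes in 4 WT and 5 hNAG-1 mice, 1 point per mouse, with every vertical axis starting at 0, lines at the genotype means, bars for the SD and shapes for the slides. The 4 lowest points of Sptlc2 A_52_P59916 are hNAG-1 mice between 202 and 275, below all 4 WT mice, while A_52_P200244 of the same gene overlaps fully.

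The log2 intensity of one probe minus that of another on the same array, which is read only for how it differs between mice, put the disagreement into single numbers. A_52_P200244 minus A_52_P59916 was 2.29 ± 0.22 (SD, n = 4) in WT mice. It was 3.17 ± 0.50 (SD, n = 5) in hNAG-1 mice. WT mice ran from 2.07 to 2.51 and hNAG-1 mice from 2.39 to 3.63, so only hNAG-1 5, the lowest, overlapped. The genotypes thus differed by 0.88, or by 0.15 within the shared slide. A_51_P321331 minus A_52_P59916 differed between the genotypes by 1.18, or by 0.12 within the shared slide, and A_51_P321331 minus A_52_P200244 by 0.30 and -0.03. In both differences that involve A_52_P59916 the highest mice were hNAG-1 2, 3 and 4, whose arrays had the fewest probes above background, and the part of this was not tested. These differences rest on the values that chose the set and carry no test.

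Among the ceramide synthases, Lass4, which makes ceramides with long and very long chains, again gave answers that depended on the probe. Its most upstream probe, A_52_P67570, had a lower mean in hNAG-1 glands, with overlap, and the other 2 differed less over all arrays. A_52_P67570 was designed on a cDNA clone and read 147, 244, 117 and 71.7 in WT 1 to 4. It read 47.5, 31.2, 83.4, 41.0 and 85.8 in hNAG-1 1 to 5. Of the hNAG-1 mice, 3 lay below every WT mouse, and the remaining 2 lay between WT 4 and WT 3. The means were 145 ± 72.7 (SD, n = 4) and 57.8 ± 25.2 (SD, n = 5), with a log2 difference of -1.30 ± 0.41 (SE) that was -0.57 within the shared slide. Leaving out each mouse in turn gave values between -1.60 and -1.01, and normexp background correction in place of the scanner's gave -0.68. Of the 3 lowest readings, those of hNAG-1 2 and 4 came from the arrays with the fewest probes above background, and the part of this in the difference was not tested.

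The other Lass4 probes overlapped further. A_51_P296528 read 600, 1355, 583 and 678 in WT 1 to 4, and 622, 517, 739, 985 and 535 in hNAG-1 1 to 5. A_52_P236426 read 163, 466, 191 and 212 in WT 1 to 4, and 189, 187, 226, 287 and 194 in hNAG-1 1 to 5. The groups overlapped at both, and WT 2 was the highest mouse at both. The log2 differences were -0.19 ± 0.30 and -0.14 ± 0.30 (SE), and without WT 2 they were 0.09 and 0.19. Within the shared slide, which holds WT 2, they were -0.60 and -0.45.

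A_51_P296528 minus A_52_P236426, the pair of downstream Lass4 probes, was alike in the genotypes, 1.68 ± 0.15 in the 4 WT mice and 1.63 ± 0.15 (both SD) in the 5 hNAG-1 mice. The differences that involve A_52_P67570 were larger in hNAG-1 mice. A_51_P296528 minus A_52_P67570 was 2.51 ± 0.52 in WT mice against 3.63 ± 0.76 in hNAG-1 mice (SD). A_52_P236426 minus A_52_P67570 was 0.84 ± 0.58 in WT mice against 2.00 ± 0.70 in hNAG-1 mice (SD). The genotypes differed by 1.11 and 1.16 over all arrays, but by -0.04 and 0.11 within the shared slide, and by 0.51 and 0.58 with normexp.

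**Figure D2:**
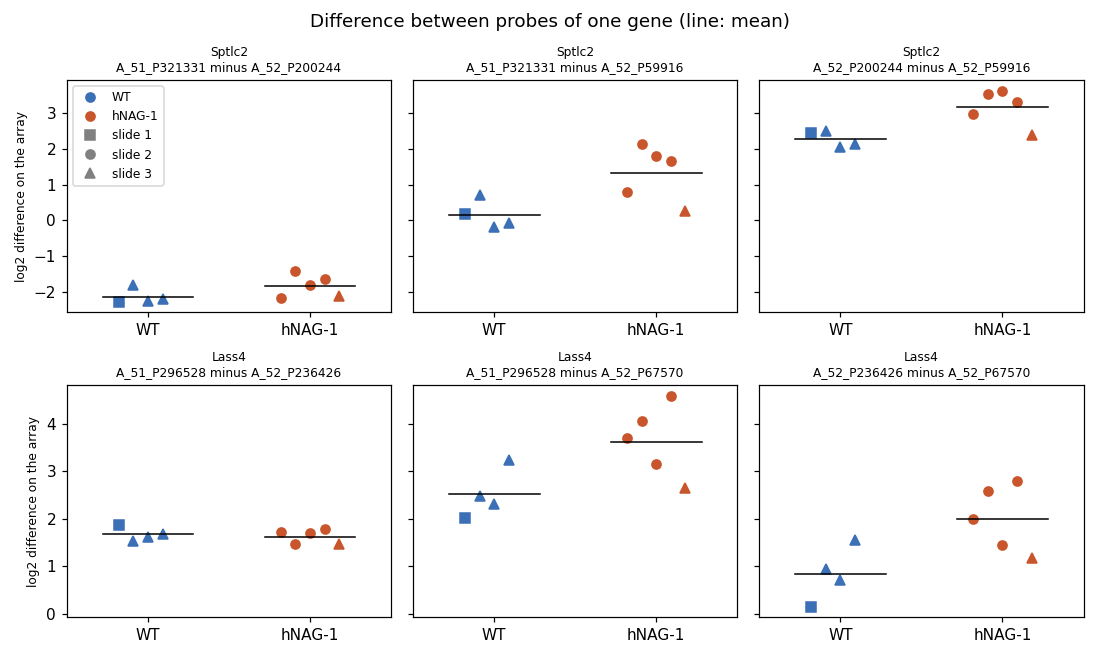
Log2 intensity of one probe minus that of another probe of the same gene, 1 point per mouse, for Sptlc2 and Lass4 in WT and hNAG-1 mice. The pairs that include Sptlc2 A_52_P59916 or Lass4 A_52_P67570 lie higher in most hNAG-1 mice, while the pair of downstream Lass4 probes averages 1.68 in WT mice and 1.63 in hNAG-1 mice.

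Lymphocyte markers were highest in WT 2, followed by hNAG-1 4 and WT 1. The summed scaled intensity of 8 lymphocyte genes was 8433, 50128, 3137 and 2473 in WT 1 to 4, and 2540, 1953, 1956, 9490 and 3023 in hNAG-1 1 to 5. All 8 genes were lower in hNAG-1 mice, 1 of them at an unadjusted p under 0.05, and 6 were well above background on all arrays. WT 2 and hNAG-1 4 were also the highest of their genotype at Lass4 A_51_P296528, Lass4 A_52_P236426 and Lass6 A_52_P323111, whereas WT 1 was low at both Lass4 probes, with 600 and 163. At Lass4 A_52_P67570, WT 2 was the highest WT mouse but hNAG-1 4 was the second lowest hNAG-1 mouse, and without both arrays its log2 difference was -0.91. The part of lymphocytes in these values was not tested. Of the other markers, all 7 milk protein genes that define a lactating gland were well above background on every array, with sums of 1600146 to 2930370 in WT mice and 2004203 to 3012305 in hNAG-1 mice. These sums include Wap, which was saturated on 2 arrays. Sums for luminal epithelium (5 genes), adipocytes (7 genes), macrophages (4 genes), myoepithelium (5 genes) and endothelium (4 genes) overlapped between the genotypes, with 1 gene at an unadjusted p under 0.05, in the myoepithelial list. All luminal, adipocyte, myoepithelial and endothelial genes of these lists had a positive log2 difference, hNAG-1 minus WT, and 1 of 4 macrophage genes did.

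**Figure D3:**
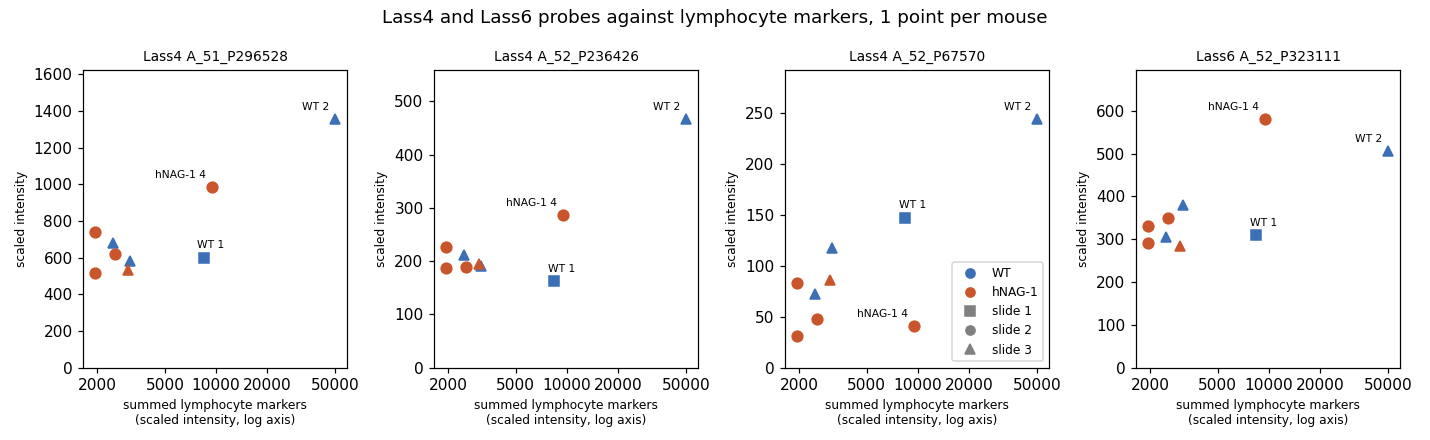
Scaled intensity of Lass4 and Lass6 probes against the summed intensity of 8 lymphocyte marker genes (scaled intensity, log axis), 1 point per mouse in WT and hNAG-1 groups. WT 2, at a sum of 50128, is the highest point of both downstream Lass4 probes, and hNAG-1 4, at 9490, is the highest hNAG-1 mouse there.

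The remaining ceramide synthases overlapped between the genotypes, and none passed the test. Lass2, the synthase of very long chains that is most widely expressed, ran from 4255 to 5552 in WT and from 4668 to 6467 in hNAG-1 mice. Its fold was 1.11 with a 95% interval of 0.870 to 1.41 (limma, adjusted p = 0.749; exact permutation test, two-sided, p = 0.286). Lass5, which favours palmitoyl chains, had the tightest interval of these synthases, with 1480 to 1787 in WT, 1471 to 1747 in hNAG-1 mice and a fold of 0.998 (95% interval 0.814 to 1.22; limma, adjusted p = 0.996; exact permutation test, p = 0.960).

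Lass6, which shares that preference, ran at A_52_P323111 from 305 to 506 in WT and from 283 to 580 in hNAG-1 mice. WT 2 and hNAG-1 4 stood well above the rest. The fold was 0.964 with a 95% interval of 0.651 to 1.43 (limma, adjusted p = 0.953; exact permutation test, two-sided, p = 0.794). Within the shared slide the log2 difference was -0.46. The other Lass6 probe ran from 4.5 to 17.1 and was not well above background on any array, so no fold is given for it. The probe shared by Gdf1 and Lass1 ran from 208 to 321 in WT and from 142 to 272 in hNAG-1 mice. Its log2 difference was -0.32 ± 0.24 (SE), and 0.01 within the shared slide (limma, adjusted p = 0.661; exact permutation test, p = 0.246).

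Degs1, the desaturase that completes ceramide, overlapped between the genotypes. It read 10067, 7179, 9744 and 9465 in WT 1 to 4, and 12352, 10106, 8213, 11289 and 10174 in hNAG-1 1 to 5. Although 4 of the 5 hNAG-1 mice exceeded the WT range, the fold was 1.14 with a 95% interval of 0.875 to 1.49 (limma, adjusted p = 0.697; exact permutation test, two-sided, p = 0.214). The log2 difference, 0.19 over all arrays, was 0.22 within the shared slide, 0.083 without WT 2 and 0.051 without both WT 2 and hNAG-1 4.

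Ugcg, which adds the first sugar of most glycosphingolipids, was read by 3 probes that gave similar differences, none of which passed the test over all arrays. A_51_P481342 read 2780, 3484, 2819 and 2808 in WT 1 to 4, and 3573, 3043, 3155, 2423 and 1731 in hNAG-1 1 to 5. A_52_P95910 ran from 2025 to 2469 in WT and from 1375 to 2297 in hNAG-1 mice, and A_51_P332717 from 542 to 950 and from 540 to 814. The groups overlapped at all 3 probes, where the log2 differences lay between -0.19 and -0.13 (limma, adjusted p of 0.728 to 0.848; exact permutation tests, two-sided, p of 0.341 to 0.603).

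Within the shared slide, Ugcg was lower in the hNAG-1 mouse. The lowest mouse at A_51_P481342, A_52_P95910 and A_51_P332717 was hNAG-1 5, on the shared slide. There the log2 differences were -0.80, -0.70 and -0.45, resting on 1 hNAG-1 mouse against 3 WT mice. Limma with the slide as a block takes these differences from that 1 hNAG-1 mouse. It assumes that the mouse varies like hNAG-1 1 to 4 on their slide and WT 2 to 4 on the shared slide. A p-value from it would rest on that mouse, and none is given for these probes. Over all arrays, differences between pairs of the 3 probes themselves differed between the genotypes by -0.01 to 0.06, with exact permutation p of 0.349 to 0.952, each 0.952 after Benjamini-Hochberg adjustment over 3 pairs. Within the shared slide the probes lay further apart, with A_51_P332717 at -0.45 beside -0.80 and -0.70.

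Asah1, the lysosomal enzyme that cleaves ceramide to sphingosine, overlapped between the genotypes. It ran from 2595 to 3564 in WT and from 2606 to 5414 in hNAG-1 mice, the highest value being hNAG-1 2. The fold was 1.10 with a 95% interval of 0.778 to 1.55 (limma, adjusted p = 0.843; exact permutation test, two-sided, p = 0.619). The log2 difference was 0.13 over all arrays, and -0.27 within the shared slide.

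**Figure D4:**
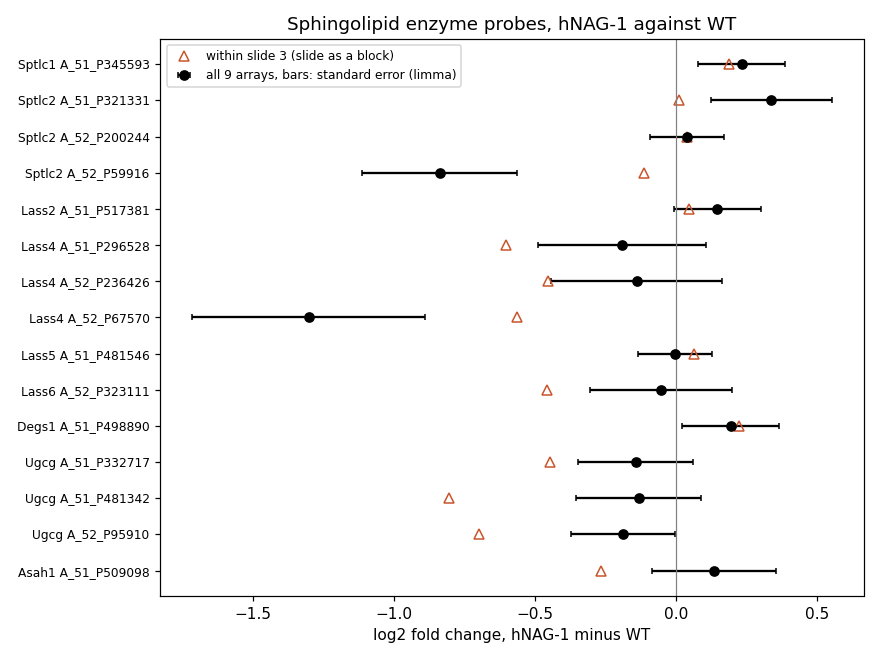
Log2 difference, hNAG-1 minus WT, of the 15 enzyme probes above background over all 9 arrays with its standard error, and the value within the shared slide. Sptlc2 A_52_P59916 and Lass4 A_52_P67570 lie lowest over all arrays, at -0.84 and -1.30, and at -0.11 and -0.57 within that slide, where Ugcg A_51_P481342 lies lowest at -0.80.

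Counted over the set, no probe of the 7 measured genes other than Sptlc2 and Lass4 had an unadjusted p under 0.05 in limma. On the whole array 5.6% of probes did so, 1.15% higher and 4.45% lower in hNAG-1 mice. The only 2 of the 16 probes on that side of the threshold, Sptlc2 A_52_P59916 and Lass4 A_52_P67570, are those that chose the set, so their count is no result. No probe of those 7 genes passed adjustment over all probes (0.00243% of the array did), and none of the 16 separated the genotypes without overlap (1.35% of the array did). With the slide as a block, both Ugcg probes named above had an unadjusted p under 0.05 on the strength of 1 hNAG-1 mouse, as had 7.61% of all probes, and both were lower, as were 0.699% of all probes. The 9 probes of those 7 genes above background, of which 4 were higher and 5 lower in hNAG-1 mice, had a median log2 difference of -0.0031 beside -0.02 over all probes. With the slide as a block it was -0.27 beside 0.19. Over all 16 probes, those that chose the set included, the median was -0.09.

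The wider sphingolipid pathway was read by 78 probes for 45 of 47 further genes. Of these, 33 probes were higher and 45 lower in hNAG-1 mice, with a median log2 difference of -0.03, beside 19709 higher and 21465 lower over all probes. With the slide as a block 55 were higher and 23 lower, beside 28318 higher and 12856 lower over all probes. In limma, 1 was higher and 5 were lower at an unadjusted p under 0.05, 6 of 78 beside the 5.6% of the array, and none passed adjustment over all probes. By role, the 6 comprised 3 of 19 probes for glycosphingolipid genes, 1 of 11 for ceramidases, 1 of 7 for further subunits and regulators of serine palmitoyltransferase, and 1 of 17 for sphingosine 1-phosphate enzymes and receptors. None of 15 probes for sphingomyelin enzymes and none of 9 for ceramide synthesis and transfer were among them. With the slide as a block none of the 6 stayed under 0.05. The 2 probes then under it were both for sphingomyelin breakdown or synthesis and higher in hNAG-1 mice, Smpdl3b A_51_P422839 at 0.79 and Samd8 A_52_P658824 at 1.15 on the log2 scale (limma, adjusted p = 0.447 and 0.567), resting on 1 hNAG-1 mouse, and Samd8 A_52_P658824 was well above background in only 2 of 5 hNAG-1 mice.

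Named here are the 6 probes at an unadjusted p under 0.05. Ormdl3, an inhibitory regulator that binds serine palmitoyltransferase, was the 1 probe on the higher side. A_51_P221460 read 10752, 9820, 10220 and 11656 in WT 1 to 4, and 10964, 16146, 15234, 13006 and 13671 in hNAG-1 1 to 5. All but hNAG-1 1 exceeded the WT range. The means were 10612 ± 794 (SD, n = 4) and 13804 ± 2015 (SD, n = 5), a log2 difference of 0.37 ± 0.15 (SE) that was 0.38 within the shared slide. Its adjusted p was 0.661 in limma, and the two-sided exact permutation p was 0.024, where the smallest that 4 against 5 mice allow is 0.00794. Ormdl3, Sptlc3 and the small subunit Sptssa all failed to pass adjustment. Sptlc3 and Sptssa had log2 differences of -0.12 and -0.02, or -0.18 and 0.32 within the shared slide. Sptssb, another small subunit, was well above background in only 1 WT and 2 hNAG-1 mice, and no fold is given for it.

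Sphk1, a kinase that makes sphingosine 1-phosphate, was lower at A_52_P400436, which read 153, 108, 222 and 196 in WT 1 to 4 and 127, 110, 88.4, 117 and 112 in hNAG-1 1 to 5. The groups overlapped through WT 2. The log2 difference was -0.57 ± 0.23 (SE) over all arrays and -0.57 within the shared slide (limma, adjusted p = 0.661; exact permutation test, two-sided, p = 0.056). A second Sphk1 probe, A_51_P501248, gave 0.22 ± 0.31 (SE) over all arrays and 0.0076 within the shared slide. With normexp the first probe was at -0.33.

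B4galt5, which adds galactose to glucosylceramide, had the largest negative value of the pathway, which rests on dim readings. A_51_P324535 read 138, 64.1, 62.8 and 95.7 in WT 1 to 4, and 29.5, 8.04, 17.5, 9.56 and 102 in hNAG-1 1 to 5. It was well above background in only 2 of the 5 hNAG-1 mice, and hNAG-1 5, on the shared slide, lay among the WT values. The 3 lowest readings came from hNAG-1 2, 3 and 4, the arrays with the fewest probes above background, and the part of this in the B4galt5 and Galc values was not tested. The log2 difference was -2.03 ± 0.69 (SE) over all arrays (limma, adjusted p = 0.661) and 0.48 within the shared slide, and normexp background correction gave -0.50. Galc, the lysosomal enzyme that removes galactose from galactosylceramide, gave -0.89 ± 0.35 (SE) at A_52_P105197, which was well above background in 1 of 5 hNAG-1 mice, and 0.32 within the shared slide. With normexp it was -0.12. Other Galc probes gave -0.25 and -0.21, or 0.28 and 0.02 within the shared slide. The last 2 of the 6 probes, Ugt8a A_52_P439263 and Asah2 A_52_P56792, were not well above background on any array, and no fold is given for them. Nor was Gal3st1 A_51_P354354, which had the largest positive value.

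Among the 78 probes, 2 separated the genotypes without overlap, beside 1.35% of the array, and the 1 described here was named after its values were seen. S1pr2, a receptor for sphingosine 1-phosphate, read 59.5, 76.0, 74.5 and 62.4 in WT 1 to 4 and 76.7, 130, 81.7, 78.3 and 88.8 in hNAG-1 1 to 5 at A_51_P499871. The lowest hNAG-1 mouse exceeded the highest WT mouse. The log2 difference was 0.40 ± 0.19 (SE), or 0.33 within the shared slide (limma, adjusted p = 0.661; exact permutation test, p = 0.024). Both other S1pr2 probes overlapped between the genotypes, A_51_P499876 at 0.38 ± 0.33 and A_52_P604613 at 0.20 ± 0.14 (SE), with two-sided exact permutation p of 0.310 and 0.0794. S1pr2 is among the genes that the study drew from these same mice, so it is not independent evidence.

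**Figure D5:**
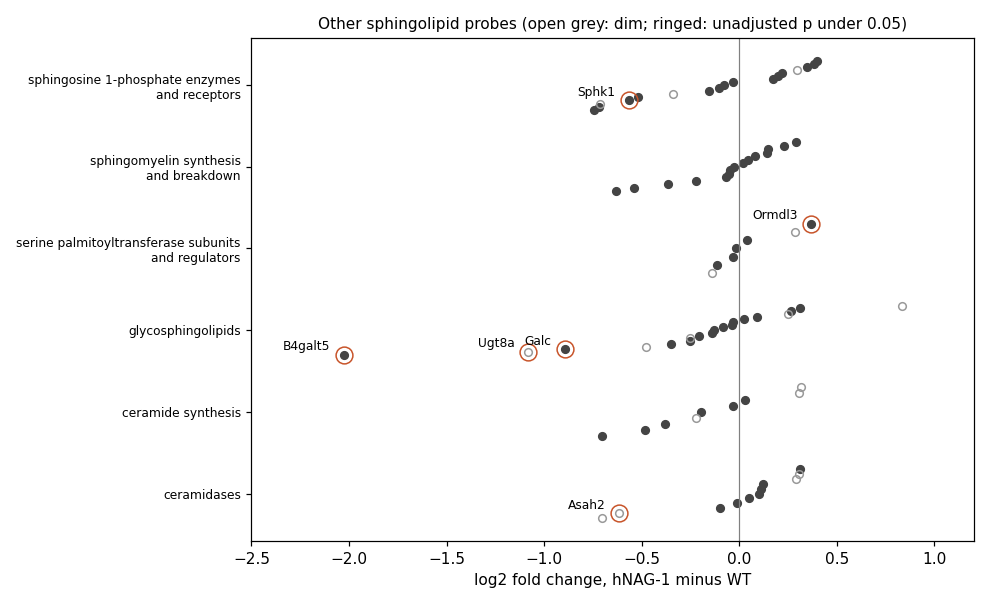
Log2 difference, hNAG-1 minus WT, of the 78 probes of further sphingolipid genes, grouped by role, 1 point per probe, with open grey points for probes that no genotype had well above background on all its arrays and rings for an unadjusted p under 0.05. No fold is read from the open points. Most points lie near 0 around the median of -0.03, and B4galt5 A_51_P324535, at -2.03, lies lowest.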

How the data were processed

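RNA from 4 WT and 5 hNAG-1 mammary glands was measured on 9 single-colour arrays. Per the file headers, the authors extracted the deposited intensity values with Feature Extraction 9.5.3.1, which subtracts background, and the series table holds the same numbers. The 1639 control features were left out and spots of 1 probe averaged, leaving 41174 probes. Each array was scaled to an equal 75th percentile (532.59 to 1185.3 before scaling) and taken to log2. Genotypes were compared with limma 3.58.1 in R 4.3.3 with Benjamini-Hochberg adjustment, after a check on simulated data, and single probes with two-sided exact permutation tests. The number of arrays limits the precision. Alternatives covered background correction, scaling, filters, slide, pairing and each mouse left out. Named were all enzyme probes, and further pathway probes with an unadjusted p under 0.05 or the largest change in each direction; other probes of those genes, further subunits, S1pr2, Smpdl3b and Samd8 were named after their values were seen. The enzymes, pathway and marker lists were chosen with earlier results of these data known. The other pathway probe without overlap between genotypes is not reported here.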

Additional observations from a re-analysis of the deposited data

Results flagged for a closer look

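Sets of 4 or 5 mice were checked for each genotype and each enzyme probe outside Sptlc2 and Lass4, the Gdf1 and Lass1 probe and the further probes at an unadjusted p under 0.05, where all mice of the set were well above background. In 2 of these 26 sets a single mouse stood apart by Dixon's test, which chance alone gives in about 1 of 20 sets. Ugcg A_51_P481342 read 3484 in WT 2, where the other WT mice read 2780 to 2819. Lass5 A_51_P481546 read 1471 in hNAG-1 4, where the others read 1672 to 1747. No cause of these was tested.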

How the results depend on the processing

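With a single hNAG-1 mouse on the only slide that held both genotypes, values within that slide are not independent of that mouse. The median log2 difference of all probes moved from -0.02 to 0.20 with median scaling, to -0.16 with no scaling and to 0.19 with the slide as a fixed block in the model, and single values should be read against these shifts. The probes with low intensity were limited by background. For the changes below, the cause was not tested.

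The count of enzyme probes at an unadjusted p under 0.05, 2 over all arrays and fixed there by the choice of the set, so that it bears on no stability, was 1 on the shared slide alone (Ugcg A_51_P481342, neither of the 2), 2 with the slide as a block (both Ugcg) and 1 without the 2 arrays of highest lymphocyte level (an alternative chosen after seeing the data), and 2 to 3 without each mouse in turn. Their median log2 difference was 0.12 with median scaling, -0.24 with no scaling, -0.19 with the slide as a block and on the shared slide alone, and 0.00041 without those 2 arrays. It ran from -0.15 to 0.030 without each mouse, the highest without WT 2. The count for further sphingolipid probes, 6 over all arrays, was 1 with normexp, 10 with median scaling, 2 with the slide as a block, 2 on the shared slide alone and 2 without those 2 arrays, and 3 to 11 without each mouse (3 without hNAG-1 3, 11 without hNAG-1 5). Their median was 0.18 with median scaling, -0.18 with no scaling, and 0.16 with the slide as a block or on the shared slide, and -0.06 to -0.00038 without each mouse.

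Replicate numbers did not pair the mice: the deviations of same-numbered mice correlated at 0.279, -0.199, -0.142 and -0.307. The replicate block drops hNAG-1 5, which has no WT partner. With the replicate block, 2 enzyme probes and 10 further probes had an unadjusted p under 0.05, and the enzyme median was 0.0082. Under the replicate block Lass6 A_52_P323111 was 0.027 and Ugcg A_51_P481342 0.029.

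Of the log2 differences of single probes, 231 values under these alternatives and 171 without 1 mouse kept their direction and side of the threshold, or moved by less than the spread between mice. Of the rest, 21 under the alternatives changed direction and 8 moved further, and 9 changed direction without 1 mouse. The threshold was on the adjusted p, which was 0.661 or above in limma over all arrays, so it left little room to change side. The alternatives for flags, dim probes and the test left the log2 differences unchanged. For the differences between probes of 1 gene, 103 values under the alternatives and 81 without 1 mouse moved by less than that spread, and 14 under the alternatives moved further. Many of the 103 could not move, since scaling of a whole array cancels in a difference between its probes. The following single probes changed sign. With median scaling, Lass5 was 0.21, Lass6 A_52_P323111 0.16, Ugcg A_51_P332717 0.071, A_51_P481342 0.082, A_52_P95910 0.025, Lass4 A_51_P296528 0.023 and A_52_P236426 0.075. With no scaling, Asah1 was -0.012, Lass2 -0.00086 and Sptlc2 A_52_P200244 -0.11, the last at -0.0034 with quantile normalization. With the slide as a block, and on the shared slide alone, Asah1 was -0.27, Lass5 0.063, the Gdf1 and Lass1 probe 0.014, B4galt5 0.48 and Galc A_52_P105197 0.32. Without the 2 arrays, Lass5 was 0.073, Ugcg A_51_P332717 0.036, Lass4 A_52_P236426 0.084 and Sptlc2 A_52_P200244 -0.020. Without each mouse in turn, Asah1 ran from -0.017 to 0.25, Lass5 from -0.057 to 0.039, Lass6 A_52_P323111 from -0.23 to 0.10, Ugcg A_51_P332717 from -0.25 to 0.016, A_51_P481342 from -0.23 to 0.029, Lass4 A_51_P296528 from -0.33 to 0.09, A_52_P236426 from -0.32 to 0.19 and Sptlc2 A_52_P200244 from -0.012 to 0.099. With 1 value per gene, Sptlc2 was -0.15 as the mean over probes and 0.038 by its brightest probe, and Lass4 was -0.54 and -0.19.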
